A study of Mus musculus with 6 samples.

Results

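The genes followed here are the 7 genes of MHC class II antigen presentation H2-Aa, H2-Ab1, H2-Eb1, H2-DMa, H2-DMb1, Cd74 and Ciita, out of 33697 genes counted in sorted cells of the mouse intestinal lamina propria. They were chosen by symbol and read in 5 gates, which are sets of cells drawn from marker genes that hold none of the 7: lymphatic endothelial, blood endothelial, fibroblast, B and myeloid cells. Each level was set against the free RNA of its own library, the summed profile of barcodes with 100 or fewer UMIs, which hold RNA from broken cells rather than a cell. A UMI is a molecular tag that marks 1 captured transcript, and levels are given as CPM, a gene's UMIs in a gate of 1 library after scaling to a total of 1e6.

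All libraries came from Flare-TSLP mice, made by homologous targeting of the Tslp locus in C57BL/6 embryonic stem cells from 1 clone, in which an IRES-tdTomato cassette reports transcription of Tslp. Live tdTomato+ cells of the lamina propria were sorted, labeled with barcoded antibodies to H-2 and CD45 (hashtags), and captured in droplets with a 3′ kit. The 6 libraries were 2 of proximal small intestine (labeled proximal jejunum), 2 of distal small intestine, 1 of cecum and 1 of large intestine. Every group carried the same allele and the labels name no treatment, so that the tissue was the only stated difference. The methods give specific pathogen-free housing, chow at will, and young adults of both sexes for pooled experiments. Each library held 3 hashtags, and the study names at least 3 biological samples for each small intestinal region. No source says which mice stand behind a library or a hashtag, so p-values measure the spread between libraries, which may be partly technical. By their hashtags the libraries fell into 2 sets, replicate 2 of each small intestinal region in 1 and all remaining libraries in the other. The tdTomato transcript was low, at 1.60 to 6.47 CPM in the lymphatic gate and 1.45 to 6.61 CPM in the fibroblast gate, next to 0.65 to 8.23 CPM in free RNA. No tdTomato UMI was found in the blood endothelial, B and myeloid gates, which over their libraries allows up to 0.33, 2.06 and 1.19 CPM by a count of 3. The sort therefore does not show that cells of these 3 gates carried the reporter, and the values are not a sample of all endothelium of the tissue.

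Class II molecules are pairs of an alpha and a beta chain that show peptides from the endocytic route to CD4+ T cells. H2-Aa and H2-Ab1 encode the chains of I-A, and H2-Eb1 encodes the beta chain of I-E, whose alpha gene is defective in C57BL/6 mice. Cd74 is the invariant chain, which guides new class II molecules to endosomes and fills their groove, and H2-DMa and H2-DMb1 form the exchange factor that swaps its remnant for other peptides. Ciita is the coactivator on which transcription of the others depends, and interferon-gamma induces it in cells other than professional antigen-presenting cells. Endothelium and lymphatic vessels are among the non-hematopoietic cells known to carry class II.

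In the GRCm39 annotation (GENCODE vM39), 5 of the 7 genes lie together on chromosome 17. H2-DMa spans 34338515 to 34358958, H2-DMb1 34372046 to 34379204, H2-Ab1 34476663 to 34488393 and H2-Eb1 34504236 to 34535648, all on the + strand, and H2-Aa spans 34493404 to 34506798 on the - strand. Ciita lies on chromosome 16 from 10297923 to 10347694 (+). H2-Aa overlaps H2-Eb1 and Ciita overlaps Dexi, in both cases on opposite strands, which the 3′ kit tells apart, as are Brd2 and H2-DMa. Predicted genes overlap H2-DMa (Gm50336 and Gm65631), H2-DMb1, H2-Ab1 and H2-Eb1 on the same strand, where reads cannot be told apart by strand, so these levels, that of H2-DMa included, are less certain. H2-DMb1 has a near-identical neighbor, H2-DMb2, and reads shared by both are not counted for either, so its level is the least certain on this ground.

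Promoters were printed where members that moved together could be laid side by side. RefSeq entries on GRCm38.p6, from 250 bases before to 50 bases after a start, matched 4 of the 7 members. H2-Ab1, Cd74 and Ciita had no entry. Capitals mark the X box (CTNGNAACT), the X2 box (TGACGTC) and the Y box (TGATTGG), sites of the complex to which CIITA binds. The letters were chosen after these promoters had been read.
H2-Aa, chr17:34287774-34288073, - strand: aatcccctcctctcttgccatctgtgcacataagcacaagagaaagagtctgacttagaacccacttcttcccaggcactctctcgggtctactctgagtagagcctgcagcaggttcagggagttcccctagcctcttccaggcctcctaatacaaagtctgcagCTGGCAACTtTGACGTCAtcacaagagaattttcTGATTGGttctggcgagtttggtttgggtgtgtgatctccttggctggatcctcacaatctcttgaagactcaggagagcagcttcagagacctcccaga
H2-Eb1, chr17:34305617-34305916, + strand: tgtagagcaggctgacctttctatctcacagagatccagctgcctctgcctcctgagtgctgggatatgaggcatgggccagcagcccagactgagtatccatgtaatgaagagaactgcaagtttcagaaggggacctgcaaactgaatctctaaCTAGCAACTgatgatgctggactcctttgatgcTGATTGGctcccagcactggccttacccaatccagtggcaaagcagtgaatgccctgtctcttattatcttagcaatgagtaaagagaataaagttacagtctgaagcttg
H2-DMb1, chr17:34152941-34153240, + strand: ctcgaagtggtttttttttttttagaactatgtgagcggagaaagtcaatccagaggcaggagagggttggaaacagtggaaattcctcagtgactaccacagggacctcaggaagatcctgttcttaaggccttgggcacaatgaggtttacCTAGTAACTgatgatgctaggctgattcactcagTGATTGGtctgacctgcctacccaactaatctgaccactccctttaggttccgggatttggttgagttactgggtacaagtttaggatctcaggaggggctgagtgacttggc

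In each of these 3 an X box preceded a Y box on the gene's own strand, the Y box beginning 50 bases before the start in H2-Aa, 61 in H2-Eb1 and 63 in H2-DMb1. The X boxes began 84, 94 and 97 bases before the start. H2-Aa also held the X2 box, whose 2 strands overlap because the motif nearly mirrors itself. Over 32851 promoters, searched on both strands, 7.82% held the Y box, 4.10% the X box, 3.21% the X2 box and 0.350% both X and Y. The pair of H2-DMa entries held none of these letters in this window. These matches are a description of letters.

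Of 93558 cells kept, 85062 fell in the 5 gates. The lymphatic gate held 15312 cells (229 to 6142 per library), the blood endothelial gate 1195 (11 to 487), the fibroblast gate 67996 (9062 to 16883), the B gate 332 (10 to 110) and the myeloid gate 227 (6 to 65). Gates of fewer than 20 cells in a library were not used there, which removed the blood endothelial and myeloid gates of the cecum and the B gate of proximal replicate 1. UMIs per library totaled 109675337 to 206827504, doublet calls 4.91% to 11.4% of cells, and pairs of libraries shared 36 to 100 cell barcodes. The median cell had 4571 to 7428 UMIs in the lymphatic gate and 6663 to 9779.5 in the fibroblast gate. The gates were drawn from these markers, so their levels describe the gates and do not test them. Lymphatic markers summed to 17429 to 23326 CPM in the lymphatic gate and 64.9 to 285 CPM in the blood endothelial gate. The other way the gates were less apart. Blood endothelial markers summed to 7222 to 8379 CPM in the blood endothelial gate and 714 to 1063 CPM in the lymphatic gate. The latter came to 218% to 1101% of free RNA. The 9 B markers reached 1.84 to 4.26 CPM in the lymphatic gate against 6115 to 9501 CPM in the B gate. B cells are small and a limit of 2500 UMIs per cell keeps the richer ones.

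The chain genes were present in lymphatic endothelium at levels well below those of B and myeloid cells and well above those of fibroblasts. H2-Aa in the lymphatic gate measured 88.7 and 77.6 CPM in the proximal libraries, 95.3 and 81.5 CPM in the distal libraries, then 197 CPM for the cecum and 500 CPM for the large intestine. In fibroblasts of the same libraries it measured 7.57, 5.14, 9.21, 5.66, 2.96 and 8.72 CPM. Every lymphatic value lay above every fibroblast value.

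H2-Ab1 gave 61.9, 57.4, 64.5, 55.6, 171 and 323 CPM in the lymphatic gate, in the same order of libraries, and 5.51, 3.99, 6.07, 3.80, 6.67 and 22.0 CPM in fibroblasts. H2-Eb1 gave 80.4, 75.2, 98.3, 80.2, 244 and 605 CPM in the lymphatic gate and 4.998 to 9.16 CPM in fibroblasts. For both genes the gates did not overlap, and the large intestine was the highest lymphatic library. Paired within libraries, edgeR's quasi-likelihood test gave log2 differences between the lymphatic and fibroblast gates of 4.39 ± 0.42 (SE) for H2-Aa, 3.85 ± 0.16 for H2-Ab1 and 4.30 ± 0.41 for H2-Eb1 (Benjamini-Hochberg adjusted p = 2.31e-05, 1.25e-07 and 2.37e-05, 6 libraries in each gate).

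Cd74, the invariant chain, lies on chromosome 18 from 60936899 to 60945731 (+) and followed the chains. Its lymphatic levels were 185, 198, 164, 175, 517 and 1231 CPM, against 5.64 to 15.3 CPM in fibroblasts, so the gates again stood apart. The log2 difference was 4.91 ± 0.43, a 30.1-fold excess (edgeR adjusted p = 1.30e-05). Ciita was scarce in each of the stromal gates. It measured 5.53, 6.60, 6.47, 7.76, 4.80 and 19.3 CPM in the lymphatic gate and 0.33 to 0.56 CPM in fibroblasts, a 17.6-fold difference (log2 4.14 ± 0.24, edgeR adjusted p = 1.00e-06). The 6 UMIs behind the cecum value make it the least certain of the lymphatic Ciita levels.

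The subunits of the peptide exchange factor parted. H2-DMb1 held 13.6, 16.1, 13.3, 14.5, 30.4 and 67.1 CPM in the lymphatic gate and 2.40 to 6.10 CPM in fibroblasts, 5.51-fold apart (log2 2.46 ± 0.18, edgeR adjusted p = 4.58e-06). H2-DMa held 10.5, 9.83, 9.32, 10.6, 26.4 and 61.1 CPM in the lymphatic gate and 13.8 to 17.2 CPM in fibroblasts. In the small intestine every fibroblast value of H2-DMa lay above every lymphatic value, and in the cecum and large intestine the order was the other way round. Over all 6 libraries its log2 difference was -0.01 ± 0.35 (edgeR adjusted p = 0.982). Thus 6 of the 7 members were higher in lymphatic endothelium, in a comparison that called 66.3% of all genes and 30.3% as higher. The median log2 difference was 4.14 over the members and -0.07 over all genes tested.

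**Figure D1:**
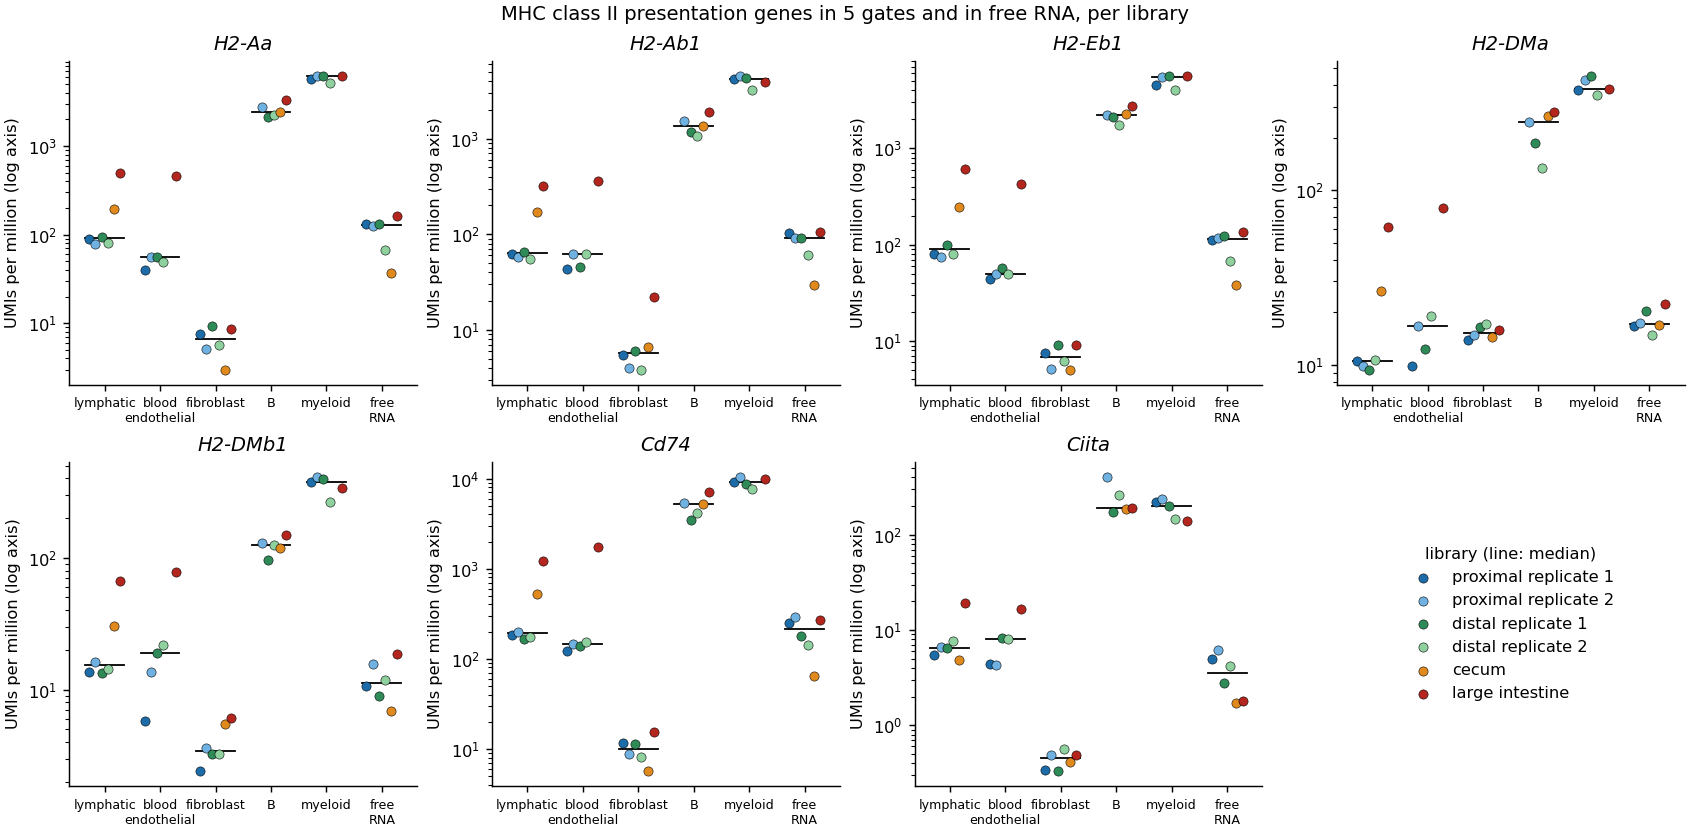
CPM (log axis) of each member by gate and in free RNA, 1 point per library and the median as a line. The chain genes, Cd74 and Ciita fall from myeloid and B cells through endothelium to fibroblasts, where H2-Aa lies between 2.96 and 9.21 CPM, while H2-DMa is at 13.8 to 17.2 CPM in fibroblasts, near its level in free RNA.

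B and myeloid cells, which are professional antigen-presenting cells, set the top of the scale. Cd74 reached 3445 to 7038 CPM in the B gate and 7580 to 10432 CPM in the myeloid gate, and Ciita 172 to 405 CPM and 140 to 236 CPM. The pair of gates overlapped in Ciita and not in Cd74. All 7 members were higher than in fibroblasts in both gates by edgeR, where 15.7% of all genes were called higher in B cells and 18.1% in myeloid cells. By limma-voom that background was 6079 genes in place of 2866 for B cells and 5595 in place of 3319 for myeloid cells. Log2 differences ran from 3.45 ± 0.22 for H2-DMa to 8.69 ± 0.24 for Cd74 in B cells, and from 4.54 ± 0.18 for H2-DMa to 9.61 ± 0.23 for Cd74 in myeloid cells.

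Blood endothelium carried the same genes. Its 4 small intestinal libraries gave H2-Aa 40.2, 56.6, 56.5 and 49.5 CPM and Cd74 122, 145, 138 and 152 CPM, and its large intestinal library gave 455 and 1761 CPM. Against fibroblasts the same 6 members were higher by edgeR (21.4% of all genes were called higher), with Cd74 at log2 4.28 ± 0.47 and Ciita at 4.02 ± 0.38. H2-DMa gave log2 0.38 ± 0.39 (adjusted p = 0.430).

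Set directly against each other, the endothelial gates differed in 3 members. H2-Eb1 was higher in the lymphatic gate in all 5 shared libraries (log2 0.55 ± 0.09, edgeR adjusted p = 0.000434), and so was H2-Aa (0.50 ± 0.14, adjusted p = 0.0121). H2-DMa was lower (-0.55 ± 0.15, adjusted p = 0.0120). Cd74, H2-Ab1, H2-DMb1 and Ciita differed by -0.09 to 0.07 on the log2 scale, with standard errors of 0.13 to 0.24, and did not pass the test. This comparison called 57% of all genes, so 3 of 7 is not more than the background. The H2-Aa call was lost without proximal replicate 1 (0.36, adjusted p = 0.0508), and without the large intestine Cd74 passed as well (0.29, adjusted p = 0.0114).

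Free RNA held class II transcripts in every library, which matters for a gene at a few CPM. H2-Aa in free RNA measured 133, 127, 133, 67.7, 37.0 and 163 CPM and Cd74 246, 288, 180, 144, 64.5 and 268 CPM. The cecum was lowest for both. In fibroblasts the summed level of H2-Aa, H2-Ab1, H2-Eb1 and Cd74 came to 3.68% to 12.0% of that in free RNA, and H2-Ab1 alone to 4.35% to 6.67% in the small intestine and 20.6% to 22.8% in the large bowel. H2-Ab1 made up 15.98% to 17.3% of the UMIs of the 4 genes in small intestinal fibroblasts, 32.9% in the cecum and 39.9% for the large intestine. These shares stood next to 2.97% to 5.37% for 7 leukocyte tracer genes such as Ptprc, whose transcripts fibroblasts should lack. In the lymphatic gate the 4 genes came to 65.4% to 115% of free RNA in the small intestine, 668% of it for the cecum and 396% for the large intestine. There the leukocyte tracers stood at 3.70% to 18.0%, immunoglobulin tracers at 2.23% to 5.72% and epithelial tracers at 0% to 4.11%. In blood endothelium the 4 genes stood at 41.9% to 449% and the leukocyte tracers at 2.44% to 8.31%. The class II level of both endothelial gates, as a share of free RNA, was thus above that of these tracers in every library used. The 15 myeloid markers, which also limit the gates, stood higher than the leukocyte tracers. They came to 16.4% to 37.8% of free RNA in the lymphatic gate, 13.9% to 49.8% in blood endothelium and 15.5% to 98.9% in fibroblasts. In blood endothelium this range overlapped that of the 4 genes.

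The test across all genes asked whether a gate exceeded free RNA itself. Of the 7 members, H2-DMb1 (log2 0.83 ± 0.23, edgeR adjusted p = 0.0101) and Ciita (1.05 ± 0.34, adjusted p = 0.0206) were higher in the lymphatic gate than in free RNA. This comparison called 30% of all genes higher, so 2 of 7 is not more than the background. The Ciita call was lost without distal replicate 1 (adjusted p = 0.0501) or distal replicate 2 (adjusted p = 0.0556). The others gave -0.16 to 0.70 with standard errors of 0.29 to 0.44 and did not pass. In blood endothelium none of the 7 passed by edgeR, adjusted or at an unadjusted p of 0.05, nor by DESeq2, while 64.1% of all genes passed the adjusted threshold and limma-voom called H2-DMb1. Without the large intestine, H2-Aa (-1.03), H2-Ab1 (-0.56), H2-Eb1 (-0.91) and Cd74 (-0.43) were called lower than free RNA. In fibroblasts 6 of 7 were lower, against 20% of all genes, from H2-DMb1 at -1.40 ± 0.22 to Cd74 at -4.00 ± 0.18. H2-DMa was at -0.00 ± 0.09 (adjusted p = 0.994).

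**Figure D2:**
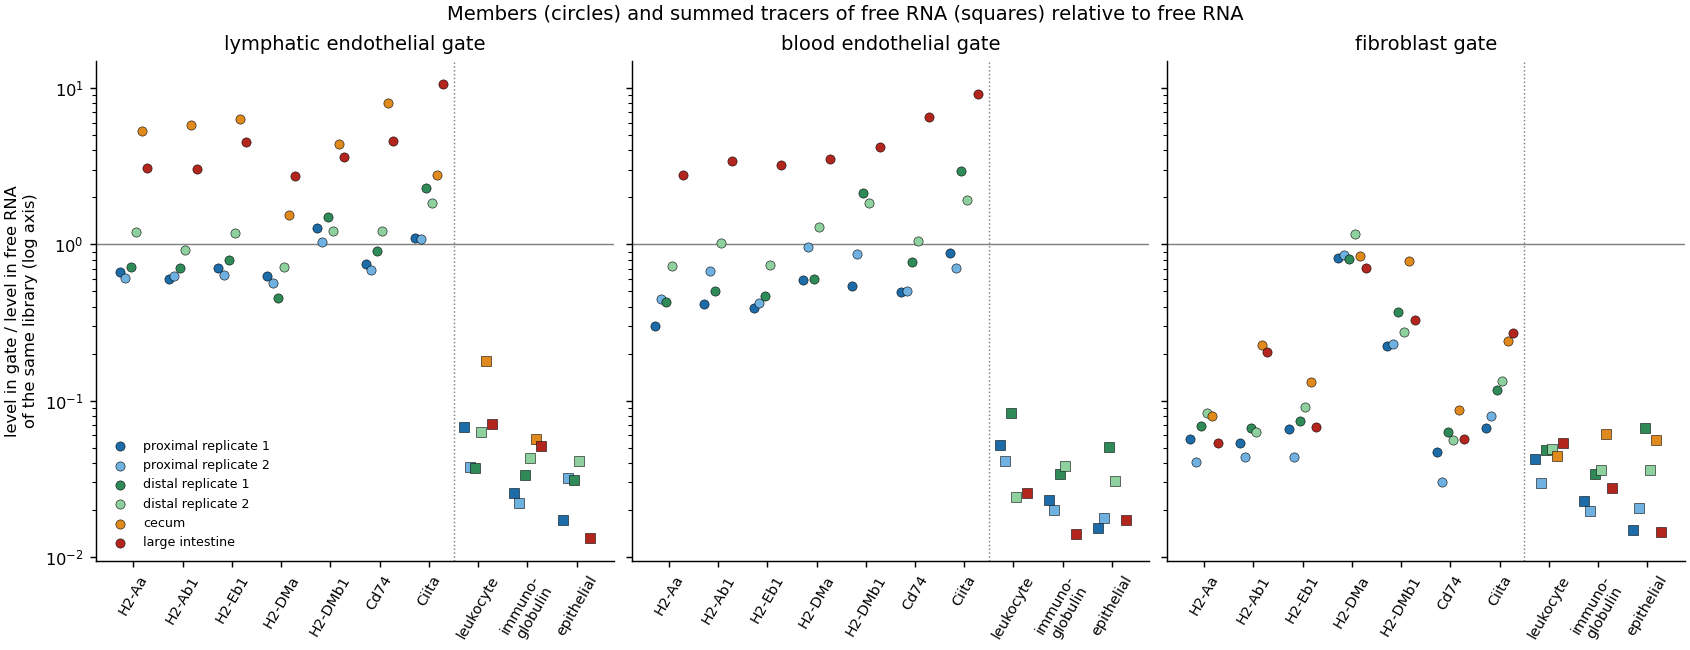
Level in a gate divided by the level in free RNA of the same library (log axis), for the 7 members (circles) and for summed tracers of other cells (squares), 1 point per library. Lymphatic members sit at 0.46 to 2.31 in the small intestine. There H2-DMa and H2-Ab1 lie below 1 in every library, and H2-DMb1 and Ciita above it. In the cecum and large intestine all 7 lie above 1. Tracers sit at 0.18 or less, and the epithelial tracers of the cecum, at 0 in the lymphatic gate, cannot be drawn.

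Between the distal and the proximal small intestine no member passed the test in any of the 3 stromal gates. In the lymphatic gate the log2 differences, distal minus proximal, were -0.20 to 0.23 with standard errors of 0.13 to 0.21. By edgeR none of the 7 passed, and none of 15428 genes did, with 597 genes at an unadjusted p under 0.05 and 34 past the threshold by DESeq2. In blood endothelium H2-DMb1 had the largest difference (log2 1.22 ± 0.40, adjusted p = 0.778), where 0.0101% of all genes were called. In fibroblasts the members gave -0.01 to 0.33, where 0.0106% of all genes were called.

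The large bowel stood apart. In the lymphatic gate the cecum and the large intestine lay above all 4 small intestinal libraries for H2-Aa, H2-Ab1, H2-Eb1, H2-DMa, H2-DMb1 and Cd74, by the levels given above. These 6 members were called higher by edgeR (2 libraries against 4), in a comparison that called 9.8% of all genes higher. Log2 differences were 2.00 ± 0.26 for H2-Aa, 2.03 ± 0.19 for H2-Ab1, 2.33 ± 0.26 for H2-Eb1, 2.14 ± 0.24 for H2-DMa, 1.77 ± 0.23 for H2-DMb1 and 2.24 ± 0.25 for Cd74, with adjusted p from 0.000133 to 0.00106. Their median with Ciita was 2.03, against -0.02 over all genes. Each of the 6 remained called with either large bowel library left out, at 1.00 or more without the large intestine and 2.12 or more without the cecum. They also stayed called against the replicate 1 libraries alone, which share the hashtags of the large bowel (1.91 to 2.32).

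Ciita did not move with them across both libraries. It stood at 19.3 CPM in the large intestine and at 4.80 CPM in the cecum, below all 4 small intestinal values of 5.53 to 7.76 CPM. The log2 difference was 0.96 ± 0.37 (edgeR adjusted p = 0.0947). Without the cecum it was 1.45 (adjusted p = 0.0184), and without the large intestine -0.53. The 6 Ciita UMIs of the cecum give an exact Poisson 95% interval of 1.76 to 10.4 CPM, which covers the small intestinal values and reaches at most 1.60 times their median. The other 6 members stood in the cecum at 2.16 to 3.04 times their small intestinal medians, and the intervals of 5 of them began at 1.79 times or more, while that of H2-DMb1, 1.53 to 2.97 times, overlapped that of Ciita. The interval covers counting error only.

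The free RNA of the large bowel gave H2-Aa at 37.0 CPM in the cecum, below the small intestine, and at 163 CPM in the large intestine, above it. The 9 B markers summed to at most 4.26 CPM in the lymphatic gate of any library. The 10 T cell or ILC markers did move with the region, at 9.09 to 13.5 CPM in the small intestine, 55.2 CPM in the cecum and 70.3 CPM for the large intestine, against 9.36 to 55.3 CPM in free RNA. Cd2, an adhesion molecule, made up 66 of 69 and 149 of 153 of these UMIs in the large bowel, and the other 9 genes summed to 1.71 to 2.58 CPM in every library, Cd3e, Cd3d, Cd3g and Trac among them. Cd2 alone stood at 52.8 CPM in the cecum and 68.5 CPM in the large intestine, above the 2.71 and 4.63 CPM of their free RNA. In the small intestine it stood at 7.31 to 10.9 CPM, and at 1.32 to 6.68 CPM in free RNA. The part of Cd2-bearing cells in the result was not tested. Leukocyte tracers in that gate summed to 7.99 CPM for the cecum and 4.60 CPM for the large intestine, within the 4.37 to 10.0 CPM of the small intestine. Of 3 tracers tested, Cd37 was called higher in the large bowel (log2 2.07 ± 0.64, edgeR adjusted p = 0.0457), at 3.20 and 2.30 CPM from 4 and 5 UMIs against 0.19 to 0.80 CPM, and Ptprc was called lower, with 0 UMIs in both large bowel libraries. Their part in the result was not tested. Removing every cell with a leukocyte tracer left 6 members called, H2-Aa at 2.00 and Cd74 at 2.24.

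In blood endothelium only the large intestine could be compared, as 1 library against 4. The lone library is assumed to vary like the small intestinal ones, so the p-values speak of this library and not of the region. The same 6 members were called higher, where 1.65% of all genes were. Log2 differences were 3.66 ± 0.18 for Cd74 (12.7-fold), 3.19 ± 0.20 for H2-Aa, 3.12 ± 0.18 for H2-Eb1, 2.79 ± 0.20 for H2-Ab1, 2.53 ± 0.42 for H2-DMb1 and 2.51 ± 0.29 for H2-DMa. Adjusted p ran from 1.83e-07 for Cd74 to 0.00780 for H2-DMb1. Ciita lay at 4.31 to 8.20 CPM in the small intestine and 16.6 CPM in the large intestine, and missed the threshold (log2 1.497 ± 0.52, adjusted p = 0.119).

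Fibroblasts showed a narrower pattern. H2-DMb1 was 0.92 ± 0.19 higher in the large bowel on the log2 scale (edgeR adjusted p = 0.0136) and H2-Ab1 1.57 ± 0.42 (adjusted p = 0.0300), where 16.3% of all genes were called higher. H2-Ab1 rested on the large intestine, at 22.0 CPM against 6.67 CPM in the cecum, and without that library its difference was 0.54 (adjusted p = 0.260). The H2-Ab1 call also needed both proximal replicates (adjusted p = 0.0622 and 0.0730 when replicate 1 or 2 was left out) and distal replicate 2 (0.0691). Against the replicate 1 libraries alone neither gene passed. The other 5 gave -0.24 to 0.13.

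**Figure D3:**
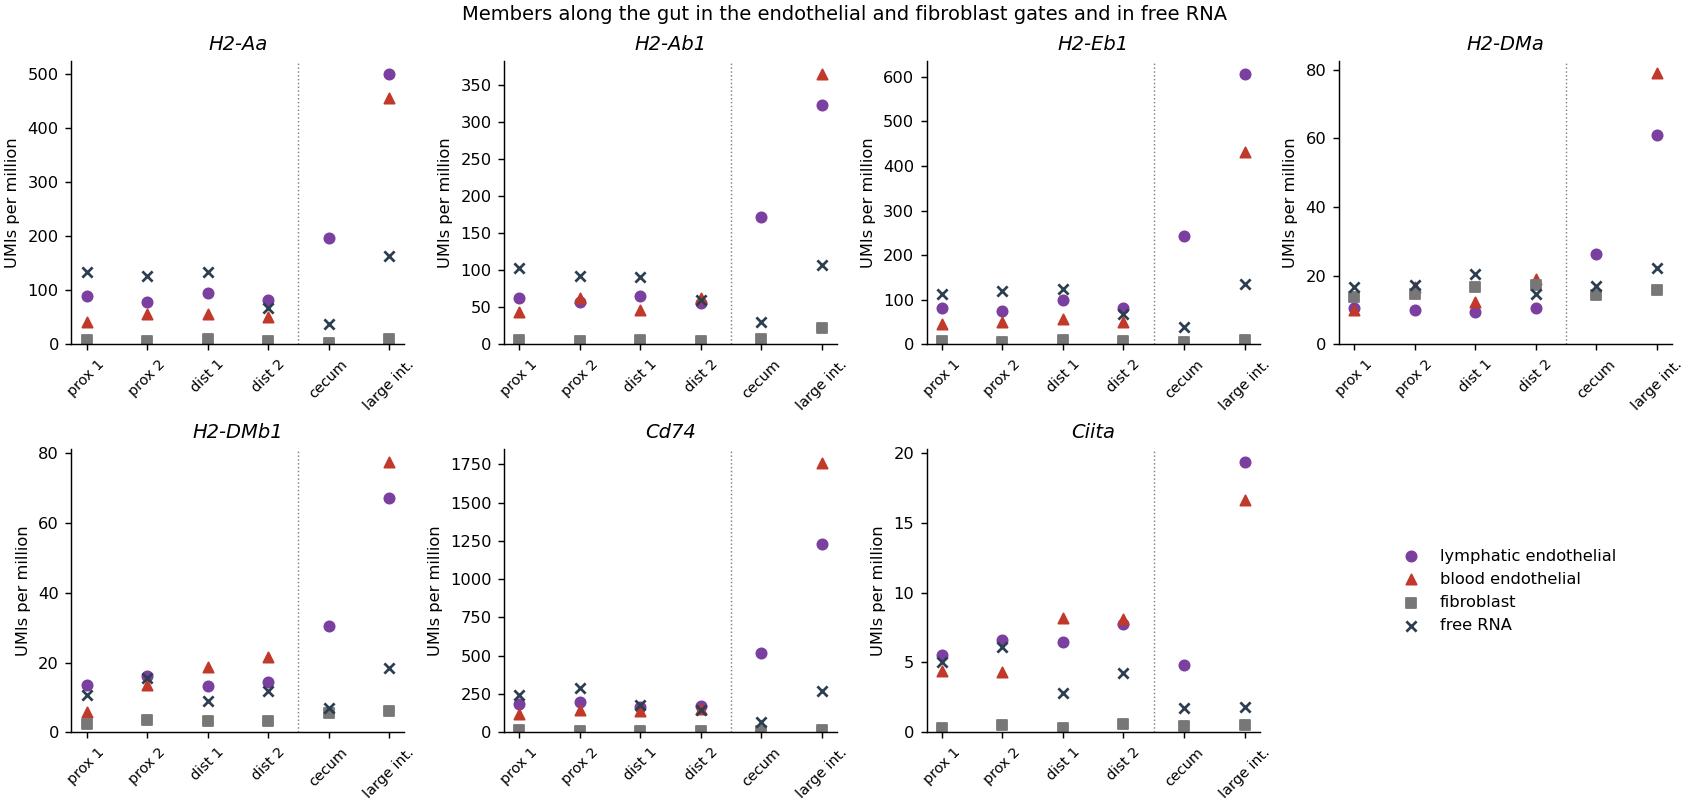
CPM of each member by library, from the proximal small intestine to the large intestine, in the endothelial and fibroblast gates and in free RNA. Lymphatic points of 6 members rise from the small intestine through the cecum to the large intestine, Cd74 from 164 to 198 CPM through 517 to 1231 CPM, while Ciita stays low in the cecum at 4.80 CPM. The blood endothelial gate of the cecum is not drawn.

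Class II transcripts were spread over many lymphatic cells. Counted per cell without thinning over H2-Aa, H2-Ab1, H2-Eb1 and Cd74, 31.8% to 38.7% of small intestinal lymphatic cells held none, as did 32.3% of cecal and 10.6% of large intestinal ones. Cells with 10 or more made up 4.88% to 7.47%, 21.8% and 55.9%. Median depth was lowest in the cecum, and after each cell was thinned to 2500 UMIs the cells with none were 52.3% to 56.3%, 41.0% and 19.3%, and those with 10 or more 0.21% to 0.61%, 9.17% and 23.6%. The richest 10% of lymphatic cells held 42.0% to 51.2% of these UMIs in each library. Of lymphatic cells with 10 or more, unthinned, 3.57% to 7.50% carried a leukocyte tracer UMI, against 1.79% to 4.10% of those with fewer. Depth was not compared between these cells. In the B and myeloid gates the tracer was in 100% of cells with 10 or more.

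Fibroblasts with 10 or more such UMIs were rare, 5 to 39 in a library, and differed in this respect. In the small intestine 46.2% (6 of 13 cells) to 80.0% (4 of 5 cells) of them carried a leukocyte tracer, against 3.44% to 4.96% of other fibroblasts. In the large intestine it was 5 of 39 cells (12.8%) and in the cecum 0 of 11, too few cells to limit the share closely. These cells were chosen by unthinned counts, and their depth was not compared with that of the others.

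Shares of cells with a UMI were compared after each cell was thinned to 2500 UMIs. Cd74 was found in 25.1% to 30.3% of small intestinal lymphatic cells, in 44.5% of those in the cecum (exact Clopper-Pearson 95% interval 38.0% to 51.2%) and in 68.5% in the large intestine (62.4% to 74.2%). In fibroblasts the share was 1.12% to 2.60%, and whether all of it is background was not tested. Unthinned, the shares were 41.4% to 79.9% and 2.57% to 7.78%, at median depths of 4571 to 7428 and 6663 to 9779.5 UMIs. Ciita was found in 1.31% to 3.54% of thinned lymphatic cells and 0.0739% to 0.159% of thinned fibroblasts. For both genes the large intestine was the highest lymphatic library by share and by CPM. H2-DMa was found in 2.01% to 13.4% of lymphatic cells and in 3.31% to 4.23% of fibroblasts. The intervals cover counting error only.

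**Figure D4:**
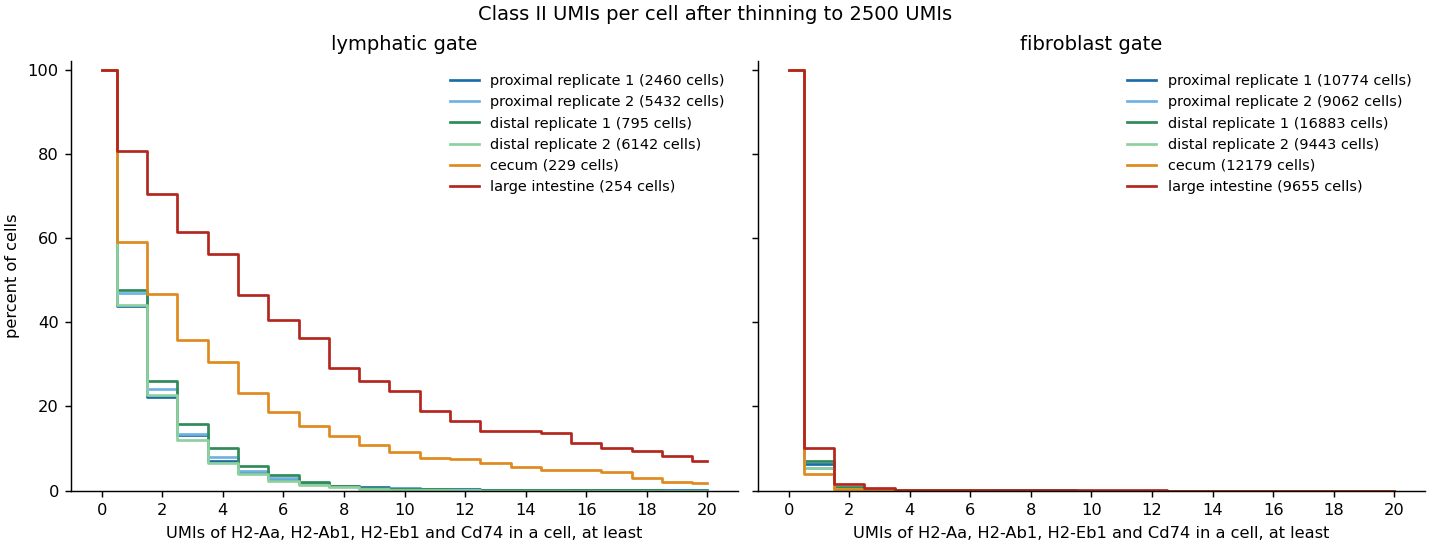
Percent of cells with at least the given number of UMIs of H2-Aa, H2-Ab1, H2-Eb1 and Cd74 together, after thinning to 2500 UMIs, 1 line per library. At least 1 such UMI was in 43.7% to 47.7% of small intestinal lymphatic cells, 59.0% of cecal and 80.7% of large intestinal ones, and in 3.92% to 10.1% of fibroblasts.

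The lymphatic cells in which a Ciita UMI was captured were compared with those in which none was, within each library. There were 27 to 259 such cells in 5 libraries. The cecum held 6 and was not used. Ciita itself chose the cells and was not tested. Cd74 stood at 526, 272, 302, 247 and 1857 CPM in cells with Ciita (proximal replicates 1 and 2, distal replicates 1 and 2, large intestine) and at 173, 194, 158, 170 and 1123 CPM in cells without. H2-Ab1 stood at 132, 80.6, 124, 93.2 and 532 CPM with and at 59.4, 56.1, 61.9, 53.5 and 287 CPM without. In both genes the cells with Ciita were higher in 5 of 5 libraries.

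By edgeR with the library as a block, 5 of the other 6 members were higher in cells with Ciita, in a comparison that called 0.662% of all genes higher. Log2 differences were 0.86 ± 0.18 for H2-DMa, 0.81 ± 0.09 for H2-Ab1, 0.80 ± 0.09 for Cd74, 0.79 ± 0.10 for H2-Eb1 and 0.70 ± 0.09 for H2-Aa, with adjusted p from 7.07e-08 to 0.00512. H2-DMb1 gave 0.42 ± 0.17 (adjusted p = 0.499), higher in 3 of 5 libraries. The H2-DMa call was lost without distal replicate 2 (0.71, adjusted p = 0.302). Cells with Ciita were also deeper, with medians of 6413 to 9277.5 UMIs against 5484 to 7143.5.

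Leukocyte tracers were higher in cells with Ciita in 2 libraries. In proximal replicate 1 they summed to 69.5 CPM with Ciita and 7.83 CPM without, Ptprc at 12.2 CPM from 7 UMIs. In distal replicate 2 they summed to 10.6 CPM from 21 UMIs and 4.95 CPM. In the other 3 libraries they summed to 0 to 5.09 CPM with Ciita and 4.56 to 6.77 CPM without. Without proximal replicate 1 the same 5 were called, with Cd74 at 0.60 and H2-Aa at 0.55. With every tracer-bearing cell removed they stayed called at 0.53 to 0.77, Cd74 at 0.58.

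**Figure D5:**
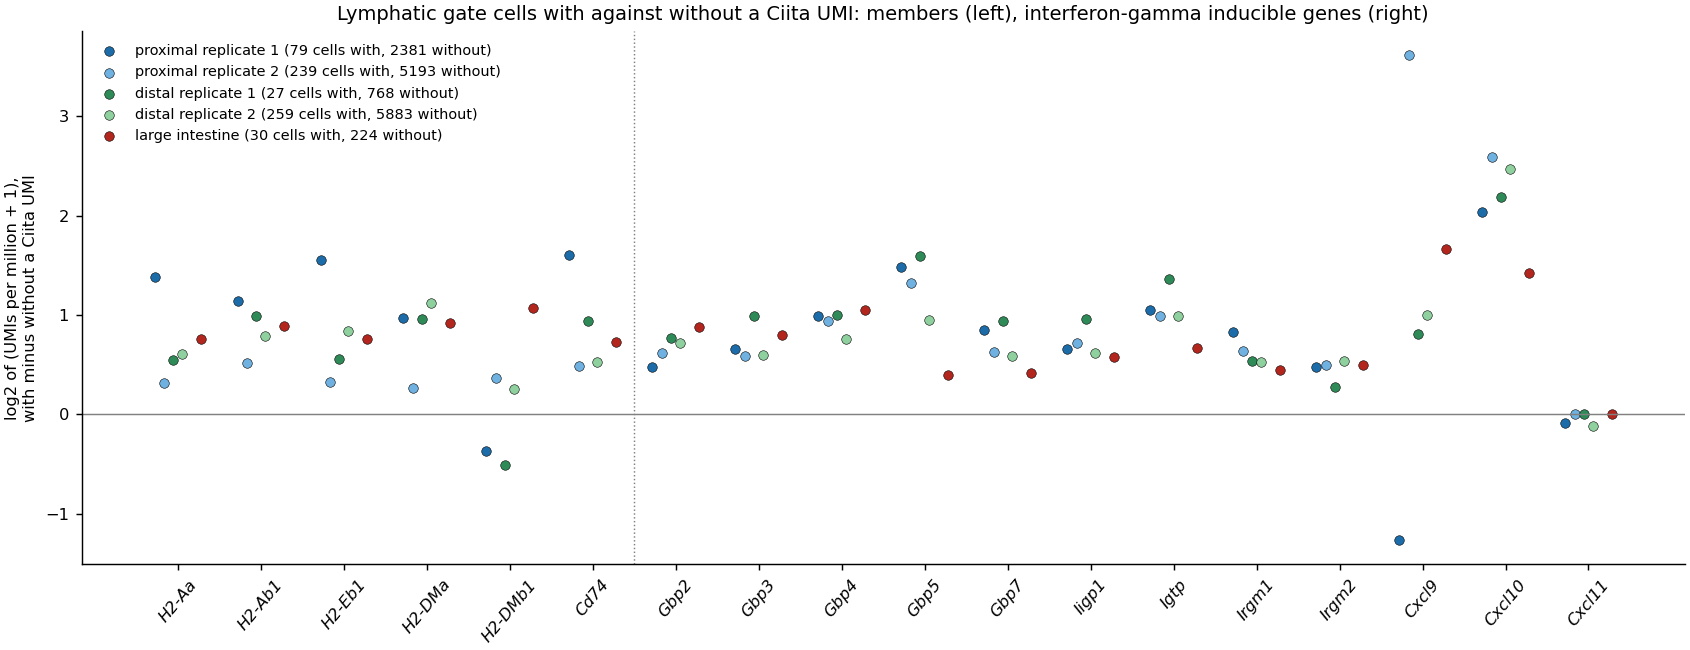
Difference in log2 (CPM + 1) between lymphatic gate cells with and without a Ciita UMI, for 6 members and 12 interferon-gamma inducible genes, 1 point per library of 5. H2-Aa, H2-Ab1, H2-Eb1, H2-DMa and Cd74 lie above 0 in every library, H2-DMb1 in 3 of 5, and Cxcl9 below 0 in proximal replicate 1.

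The other genes of the pathway were read from lists fixed with the members, and both were chosen with earlier results of these data known. Lymphatic cells with Ciita were set against those without, where 0.662% of all genes were called higher. Of 12 interferon-gamma inducible genes, 11 could be tested and all 11 were higher, with a median log2 difference of 0.69 against -0.00 over all genes. Largest were the chemokines Cxcl10 (2.36 ± 0.10) and Cxcl9 (1.89 ± 0.26). The size of the Cxcl9 difference owed much to proximal replicate 2, at 189 CPM with Ciita and 14.5 CPM without. In proximal replicate 1 Cxcl9 stood at 15.6 and 38.9 CPM. Without proximal replicate 2 its difference was 1.02 ± 0.17 and it stayed called (edgeR adjusted p = 4.75e-05). Next came the guanylate-binding protein Gbp5 (1.20 ± 0.10) and the immunity-related GTPase Igtp (1.00 ± 0.08). From the list of genes that control Ciita or class II promoters, Socs1, an inhibitor of interferon signaling, was higher (1.08 ± 0.20), a call lost without proximal replicate 2 (0.98, edgeR adjusted p = 0.0674). Of 11 class I genes 3 were higher, Nlrc5, the class I counterpart of Ciita (0.49 ± 0.08), Tap1 (0.41 ± 0.08) and Psmb9 (0.31 ± 0.07). Without distal replicate 2 the calls of Tap1 (edgeR adjusted p = 0.127) and Psmb9 (adjusted p = 0.0931) were lost, and without proximal replicate 2 that of Tap1 (adjusted p = 0.101). Of 4 tested genes of costimulation and inhibition, Cd83 (3.73 ± 0.49) and Cd274, which encodes PD-L1 (1.10 ± 0.09), were higher. Cd83 rested on proximal replicate 1 and distal replicate 2, with 34 and 33 UMIs, the same libraries in which the leukocyte tracers were higher with Ciita. Without either library, or without tracer-bearing cells, Cd83 fell below the count filter and had no test, while Cd274 stayed called (1.09 to 1.12).

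The same lists followed the large bowel only in part, in the lymphatic comparison that called 9.8% of all genes higher. In lymphatic cells, of 6 tested partners of class II loading, H2-DMb2 (log2 4.52 ± 0.69), the thiol reductase Ifi30 (3.00 ± 0.29) and the protease Ctss, cathepsin S (1.16 ± 0.34), were higher by edgeR. H2-DMb2 went from 0 to 0.43 CPM in the small intestine to 1.60 CPM in the cecum and 8.73 CPM in the large intestine. The cecum value lay below the 2.40 CPM that a count of 3 gives in that gate. Of 11 tested interferon-gamma inducible genes only Cxcl9 was called (2.51 ± 0.39), with a list median of 0.10. Of 11 class I genes none was higher and Tapbp (-0.78 ± 0.14) and Erap1 (-0.70 ± 0.19) were lower. Socs1 (0.97 ± 0.21) and Nfyb (0.58 ± 0.12) were higher and Nfya (-0.65 ± 0.20) lower among 16 control genes. None of 5 tested genes of costimulation was called. The few higher calls in the interferon-gamma inducible and control lists are near the share over all genes and are not read as particular to these lists.

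For the 1 blood endothelial library of the large intestine, with the same limit, only log2 differences of named genes are given. Of 12 interferon-gamma inducible genes these were Cxcl10 (2.38 ± 0.26), Cxcl11 (2.20 ± 0.45), Igtp (1.51 ± 0.19) and Gbp2 (1.36 ± 0.22). Of 11 class I genes they were Psmb8 (1.31 ± 0.22), Tap1 (1.08 ± 0.19) and H2-D1 (1.00 ± 0.22). Over all shared libraries 2 of 12 interferon-gamma inducible genes were higher and 7 lower in the lymphatic than in the blood endothelial gate by edgeR, and 5 of 11 class I genes were higher and 0 lower. That comparison called 57% of all genes, so neither count is read as particular to its list. Whether the change with region differed between the endothelial gates was not tested.

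Between lymphatic cells and fibroblasts 10 of 11 class I genes were higher, Nlrc5 by 1.87 ± 0.10 and Psmb9 by 1.51 ± 0.12, and 8 of 12 interferon-gamma inducible genes, Gbp4 by 2.51 ± 0.13, with Cxcl11 (-3.44 ± 0.59), Cxcl10 (-1.26 ± 0.23) and Cxcl9 (-1.17 ± 0.17) lower. Cd274 was higher (2.35 ± 0.15) and Icosl lower (-4.16 ± 0.15). Cd86, a costimulatory ligand, was called higher (1.19 ± 0.30) but lay at 0 to 0.93 CPM in the lymphatic gate against 3.21 to 11.9 CPM in free RNA and 1159 to 1683 CPM in myeloid cells. Of the loading partners, H2-DMb2, Ctss and H2-Ob were higher and Ifi30, Ctsl and Marchf8 lower. Here 30.3% of all genes were called higher and 66.3% in either direction, so these counts carry less than those within the lymphatic gate.

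The genes whose pattern was most like that of the members were sought over 27 points, the used gates of each library. The measure was the Pearson correlation of log2 (CPM + 1) with log2 (summed CPM of the 7 members + 1), among 11726 genes. Members with high levels weigh most in that sum. Highest were Sh3bgrl3 (r = 0.963), Irak2 (0.949), Syngr2 (0.944) and Nfkbie (0.934). The points share libraries, depth and free RNA, and no test was made. None of the 10 highest belonged to the lists.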

How the data were processed

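Per the labels and the methods, the authors used Cell Ranger (8.1.0 in the methods, 8.0.1 in the headers), with mm39 plus tdTomato as the genome, and deposited raw UMI counts of every barcode with hashtag counts, before removal of cells, doublets or ambient RNA. No per-cell annotation was used here. The 7 members and all gene lists were chosen with earlier results of these data known.

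Kept barcodes had a UMI total of 2500 to 40000, a gene number of 1000 to 7500 and a mitochondrial share below 10%, and doublets were called per library by Scrublet in scanpy (expected 0.8% per 1000 cells) and removed. A cell entered a gate when it held a minimum number of listed markers of that type and passed no other type. For example, 5 of 8 markers were needed for lymphatic endothelium, 4 of 8 for blood endothelium and 6 of 8 for fibroblasts. B cells needed 4 of 9 and myeloid cells 4 of 15. Fibroblasts also needed at least 50 UMIs of their markers per 10000 UMIs of the cell. For the other gates, passing as a fibroblast meant this share alone, whatever the number of markers. Pecam1 and Cdh5 were a check of the endothelial gates and did not draw them. No member was a marker. UMIs were summed per library and gate where at least 20 cells were present. Free RNA was the sum over barcodes with 100 or fewer UMIs, 2.90% to 3.82% of all UMIs.

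Sums were compared by edgeR's quasi-likelihood test on the counts (TMM, filterByExpr with a minimum count of 10) with Benjamini-Hochberg adjustment at 0.05 over all genes tested, with the library as a block within libraries and no block between regions. A standard error is the log2 fold change divided by the square root of F. The test was tried on simulated data first. Named genes were the members and, per list, up to 4 called genes with the largest change. Shares were counted after thinning to 2500 UMIs, with exact 95% intervals. Alternatives were limma-voom, DESeq2, no filter on low counts, doublets kept, cells with several hashtags removed, a stricter gate, cells with leukocyte tracers removed, a mitochondrial limit of 5%, subtraction of 10% of each sum along the free RNA profile, free RNA from barcodes with 50 or fewer UMIs, the block removed or added, and each library left out. The use of replicate 1 libraries alone was added after the data had been seen. Ambient RNA was not otherwise corrected. Cells were not split by mouse, and other assays (imaging, cytometry, qPCR) were not analysed here. A result for 1 listed gene is not reported here. Tests ran in edgeR 4.0.16, limma 3.58.1 and DESeq2 1.42.0 under R 4.3.3, and the rest in scanpy 1.11.5, pandas 2.3.3, scipy 1.17.1, numpy 2.4.6 and matplotlib 3.10.9 under Python 3.11.15.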

Additional observations from a re-analysis of the deposited data

Results flagged for a closer look

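Within-library ratios were flagged where they differed between small and large bowel, so this separation is how they were chosen. All 3 were of the lymphatic gate, and their sign differed between every small intestinal and every large bowel library. The log2 ratio of H2-Ab1 in lymphatic cells to free RNA was -0.74 to -0.11 in the 4 small intestinal libraries and 1.60 to 2.54 in the cecum and large intestine, and the medians lay 2.66 apart. The log2 ratio of H2-DMa to fibroblasts was -0.83 to -0.39 and 0.88 to 1.95, with medians 2.05 apart. The log2 ratio of H2-DMa to free RNA was -1.13 to -0.47 and 0.63 to 1.45, with medians 1.78 apart. These differences between regions in a ratio were not tested, and their cause was not tested.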

How the results depend on the processing

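The number of called members stayed the same under every alternative run for 8 comparisons, the lymphatic (6 of 7), blood endothelial (6), B (7) and myeloid (7) gates against fibroblasts, fibroblasts against free RNA (6), and distal against proximal small intestine in each of the stromal gates (0). Where fibroblasts entered, subtraction of free RNA was no check of the members that it set to 0, as given below. In the large bowel 6 or 7 members were called in the lymphatic gate (7 with no filter on low counts or without the cecum) and 4 to 6 in blood endothelium, where DESeq2 gave no adjusted p for H2-DMa, H2-DMb1 and Ciita. Where a value below changed, the cause was not tested.

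All changes of direction were in members that had not passed the test, and values are log2 differences. With the library not in the model, H2-DMa gave 0.24 between lymphatic gate and fibroblasts. Between the endothelial gates 0 members were then called, Cd74 at -0.41 and Ciita at -0.046. Against free RNA the lymphatic gate had 1 call and H2-DMa at 0.044, and blood endothelium had 1 call with H2-Aa at 0.12, H2-Ab1 at 0.40 and H2-Eb1 at 0.23. The comparison by Ciita UMI then had 0 calls. With no filter on low counts, H2-Ab1 gave 0.11 and H2-DMb1 0.029 between the endothelial gates, and blood endothelium had 2 calls against free RNA. With free RNA from barcodes of 50 or fewer UMIs, both endothelial gates had 1 call against it, and H2-Ab1 stood at 0.20 in blood endothelium and H2-DMa at 0.053 in fibroblasts. By limma-voom, blood endothelium had 1 call against free RNA with H2-Ab1 at 0.055, and fibroblasts of the large bowel had 1 call with Cd74 at -0.017. Between the endothelial gates, removal of leukocyte tracer cells gave Ciita -0.037 and subtraction of free RNA gave H2-Ab1 0.0091. Removal of cells with several hashtags gave H2-DMa 0.0083 between lymphatic gate and fibroblasts and 0.0042 in fibroblasts of the large bowel. In those fibroblasts DESeq2 gave H2-DMa 0.0054, the mitochondrial limit of 5% gave H2-DMa 0.0027, and keeping doublets gave H2-Eb1 -0.020. Against free RNA fibroblast H2-DMa was 0.0018 with doublets kept and 0.0030 at the 5% limit. With replicate 1 libraries alone, fibroblasts of the large bowel had 0 calls, H2-Eb1 at -0.27 and Cd74 at -0.17. Unthinned, the median share of lymphatic cells with a UMI was 32.7% for H2-Aa, 28.2% for H2-Ab1, 34.5% for H2-Eb1, 9.30% for H2-DMb1, 46.5% for Cd74 and 3.81% for Ciita.

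With each library left out in turn, H2-DMa ran from -0.41 to 0.16 between lymphatic gate and fibroblasts, from -0.19 to 0.62 between blood endothelium and fibroblasts, from -0.49 to 0.030 between lymphatic gate and free RNA, from -0.14 to 0.65 between blood endothelium and free RNA, and from -0.12 to 0.012 between fibroblasts and free RNA. Between the endothelial gates H2-Ab1 ran from -0.14 to 0.089, H2-DMb1 from -0.38 to 0.044, Cd74 from -0.047 to 0.29 and Ciita from -0.057 to 0.14. Blood endothelium against free RNA had 0 to 4 calls, H2-Ab1 from -0.56 to 0.25 and Cd74 from -0.43 to 0.45, and without proximal replicate 1 or 2 the single call was H2-DMb1 (1.20) or Ciita (1.41). The lymphatic gate against free RNA had 1 to 2 calls. In the large bowel lymphatic Ciita ran from -0.53 to 1.45, and fibroblasts had 1 to 2 calls, H2-Aa from -1.15 to 0.32, H2-Eb1 from -0.41 to 0.37, H2-DMa from -0.049 to 0.081 and Cd74 from -0.73 to 0.62.

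Distal and proximal libraries of 1 number share that number and a hashtag set, 2 pairs in all, and no source says that they share mice or a day. With it as a replicate block, 0 members were called in each stromal gate, as without it, while the calls over all genes went from 0 to 263 in the lymphatic gate, from 1 to 65 in blood endothelium and from 2 to 259 in fibroblasts. Deviations of same-numbered libraries correlated at 0.319, 0.166 and 0.425 in these gates.

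Counts over all genes moved more than those of the members. Lymphatic large bowel calls fell from 2879 to 1123 without the cecum, 1473 without the large intestine, 1829 without proximal replicate 1 and 1540 with replicate 1 libraries alone. Those of fibroblasts fell from 6050 to 3971 without the cecum, 3214 and 3368 without either proximal replicate, and 1683 with replicate 1 alone. Those of blood endothelium went from 335 to 929 with no filter, 128 without proximal replicate 1 and 1327 without distal replicate 1. For distal against proximal the lymphatic count of 0 became 34 by DESeq2, 169 with no filter and 51 or 2 without a proximal replicate, that of blood endothelium 61 with no filter, and that of fibroblasts 0 by limma-voom, 151 by DESeq2 and 33 with no filter. Fibroblasts against free RNA had 4109 calls in place of 10722 with the library not in the model. The comparison by Ciita UMI had 178 with no filter, 6 with the library not in the model and 136 without the large intestine, in place of 89.

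The balance of higher to lower calls over all genes differed between tools. B cells against fibroblasts had 2866 higher and 5424 lower by edgeR and 6079 and 4848 by limma-voom, the median over all genes going from -0.61 to 0.15. Myeloid cells had 3319 and 5569, then 5595 and 5057. Fibroblasts against free RNA had 6639 and 4083, and 4796 and 5118 by DESeq2. Blood endothelium of the large bowel had 176 and 159, and 130 and 263 by DESeq2.

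The cecum and the large intestine are 1 library each, so that no value separates a region from its library. Blood endothelium of the large bowel rests on 1 library. Ciita has 6 UMIs in the lymphatic gate of the cecum. Subtraction of free RNA sets fibroblast H2-Aa and Cd74 to 0, because both lie below 10% of free RNA in every library. It does the same to H2-Ab1 in the small intestine and to H2-Eb1 in the small intestine and large intestine. H2-Ab1 thus stayed called in fibroblasts of the large bowel with no fold that can be read. Under this setting other gates and free RNA were set against fibroblast values of 0 for these genes. Those folds cannot be read either. Intervals and levels cover counting error only. In bulk sums of a gate, fewer class II cells and less RNA per cell cannot be told apart except by the shares per cell given above.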

Other observations

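Plasma cells, which fell outside the 5 gates, held Cd74 above the chain genes. In the 4 libraries with at least 20 plasma cells Cd74 measured 817, 833, 556 and 595 CPM (proximal replicates 1 and 2, distal replicates 1 and 2) and H2-Aa 56.8, 21.6, 52.1 and 13.8 CPM. H2-Ab1 measured 98.3, 85.5, 95.3 and 58.6 CPM and H2-Eb1 96.1, 55.6, 90.1 and 56.0 CPM. Ciita measured 2.71, 0.55, 0.74 and 0 CPM, from 6, 2, 1 and 0 UMIs. Cd74 made up 70.0% to 83.7% of the UMIs of H2-Aa, H2-Ab1, H2-Eb1 and Cd74 in plasma cells, against 38.8% to 48.6% in the lymphatic gate, 38.8% to 46.8% in the B gate and 34.2% to 46.0% in free RNA.

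The large intestine held 7 cells in the glial gate, with 165 UMIs of those 4 genes, and 4 of the 7 had 10 or more. The 46, 32, 26 and 16 glial cells of the small intestinal libraries had means of 0.75 to 2.24 such UMIs per cell, and the 7 cells a mean of 23.6. No UMI of a leukocyte tracer was found in the 7 cells. With 7 cells of 1 library there was no test.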
